A study of Homo sapiens with 8 samples.

Results

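The non-glycolytic HIF target genes were followed across cell line and vector as 10 genes named by symbol: NDRG1, CA9, ANGPTL4, VEGFA, ADM, BNIP3, BNIP3L, ANKRD37, KDM3A and DDIT4. All 10 were found among the 13771 genes of the deposited expression table. They were chosen by symbol as HIF targets with earlier results of these data in view. Among these were the log2 fold changes of HOTAIR over empty vector in both cell lines. Those values are therefore given as a description, with no p-value for a gene. Counts past the thresholds are printed beside those of all genes, and nothing is read from them. The difference between the cell lines was not itself used in the choice and is tested below. It shares its libraries with the HOTAIR comparisons, so its p-values are not fully independent of the choice.

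RNA-seq was done on 8 libraries in 4 groups of 2. MCF10A are non-tumorigenic human breast epithelial cells, and the related DCIS.COM cells model ductal carcinoma in situ. Each line was transduced with the lentiviral vector pCDH-HOTAIR, which carries the long non-coding RNA HOTAIR, or with pCDH-empty, and all 4 groups were stable populations selected with 10 µg/mL puromycin. Both lines grew in DMEM/F-12 with horse serum at 5%. The medium of MCF10A also held insulin (10 µg/mL), hydrocortisone (100 µg/mL), epidermal growth factor (20 ng/mL) and cholera toxin (100 ng/mL), which are not given for DCIS.COM, so that cell line and medium cannot be told apart. No hypoxia treatment is described for any group. The labels do not say whether the 2 libraries of a group came from separate cultures. The p-values therefore measure only the spread between libraries, which may be technical. For each gene this spread was estimated over all 4 groups together. A pair that differs strongly thus also widens the SE of comparisons that do not use it.

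Hypoxia-inducible factors (HIF) are heterodimers of an oxygen-regulated alpha subunit, HIF1A or EPAS1, and the stable subunit ARNT. At normal oxygen the prolyl hydroxylases EGLN1 to EGLN3 mark the alpha subunit for degradation through VHL. In low oxygen the dimer accumulates and binds hypoxia response elements with the core letters ACGTG or GCGTG. Its targets outside glycolysis serve pH control (CA9), blood vessel growth and vascular tone (VEGFA, ADM), lipid handling (ANGPTL4), removal of mitochondria (BNIP3, BNIP3L), restraint of mTOR (DDIT4), histone demethylation (KDM3A) and growth control (NDRG1). Hypoxia, nutrient stress and hormones can act on several of these genes, DDIT4 in particular responding to glucocorticoids.

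Sequence upstream of the start was found in a RefSeq promoter table (GRCh38.p14) for 7 of the 10 genes: CA9, ANGPTL4, ADM, BNIP3, ANKRD37, KDM3A and DDIT4. No promoter entry was matched for NDRG1, VEGFA or BNIP3L. The 250 bases before the start are shown for 5 genes that span the patterns described below: CA9 with the largest difference between HOTAIR and empty vector in MCF10A, ADM low in DCIS.COM, BNIP3 at similar levels in both lines, ANKRD37 with the lowest level, and DDIT4 with the highest. They are written 5′ to 3′ on the strand of the gene, with ACGTG and GCGTG, read on either strand (CACGT and CACGC where the match is on the other strand), in capitals.
CA9, chr9:35673678-35673927, plus strand: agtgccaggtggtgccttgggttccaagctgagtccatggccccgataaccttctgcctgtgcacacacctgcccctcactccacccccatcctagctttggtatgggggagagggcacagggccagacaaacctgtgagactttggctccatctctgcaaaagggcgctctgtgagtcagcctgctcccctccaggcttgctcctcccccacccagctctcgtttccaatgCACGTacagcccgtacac
ADM, chr11:10304823-10305072, plus strand: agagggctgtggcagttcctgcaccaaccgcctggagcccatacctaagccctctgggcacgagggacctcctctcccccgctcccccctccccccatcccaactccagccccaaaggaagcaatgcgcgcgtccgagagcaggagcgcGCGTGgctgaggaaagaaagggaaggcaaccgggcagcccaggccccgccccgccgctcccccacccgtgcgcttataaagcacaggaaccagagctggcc
BNIP3, chr10:131981924-131982173, minus strand: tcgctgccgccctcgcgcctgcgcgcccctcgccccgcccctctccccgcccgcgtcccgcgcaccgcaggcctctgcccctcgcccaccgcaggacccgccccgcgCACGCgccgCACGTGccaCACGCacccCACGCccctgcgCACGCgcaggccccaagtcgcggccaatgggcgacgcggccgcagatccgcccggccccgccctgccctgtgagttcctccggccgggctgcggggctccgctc
ANKRD37, chr4:185396591-185396840, plus strand: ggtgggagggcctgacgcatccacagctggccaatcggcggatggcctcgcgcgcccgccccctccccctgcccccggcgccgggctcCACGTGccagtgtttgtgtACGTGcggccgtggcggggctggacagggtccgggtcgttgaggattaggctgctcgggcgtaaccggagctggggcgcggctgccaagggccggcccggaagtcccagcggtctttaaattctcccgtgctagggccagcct
DDIT4, chr10:72273674-72273923, plus strand: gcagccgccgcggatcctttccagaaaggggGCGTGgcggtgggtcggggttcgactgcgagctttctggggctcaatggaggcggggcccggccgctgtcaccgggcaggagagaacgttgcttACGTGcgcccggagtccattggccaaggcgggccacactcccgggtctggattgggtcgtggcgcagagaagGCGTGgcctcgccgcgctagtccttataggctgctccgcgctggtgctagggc

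Each of the 7 genes held ACGTG or GCGTG in this window. ACGTG was found in 5 of the 7 genes and GCGTG in 4 of the 7. Of all 35116 promoters in the table, 18.5% held ACGTG, 32.2% held GCGTG and 43.2% held either. Among the 15580 promoters of genes in the expression table the shares were 22.1%, 42.9% and 54.6%. These shares are by promoter, while the 7 genes, with 8 promoters, were counted by gene. In CA9 the single match lay at -18 to -14, close to the start. BNIP3 held 6 matches between -143 and -100, where a palindromic CACGTG counts once on each strand. ANKRD37 also held CACGTG, at -162 to -157, and a further ACGTG at -143. The matches of DDIT4 began at -219, -125 and -53, and ADM had a single GCGTG at -101. A match describes letters only, and binding was not measured.

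The targeted RNA was checked before the members. HOTAIR stood at 0.60 and 0.66 log2 CPM (read counts scaled to library size, on a log2 scale) in MCF10A pCDH-empty and at 7.90 and 7.92 in MCF10A pCDH-HOTAIR. In DCIS.COM it was 2.01 and 2.40 with pCDH-empty and 7.66 and 7.57 with pCDH-HOTAIR, the order the labels give. Recovered totals were 19306864 to 34884841 reads per library. All 12 breast epithelial markers on the list were in the table, and of 14 markers of leukocyte, endothelial, stromal, fat, muscle and liver cells 12 were not in the table, CD14 and PECAM1 being the exceptions. The DCIS.COM pCDH-empty libraries differed more than any other pair, with a chi-square per degree of freedom of 70.3 against 4.03 to 9.64 in the other pairs. RN7SL1 and RN7SL2 took 18.9% of the reads in DCIS.COM pCDH-empty 1 against 11.1% to 14.95% in the other 7 libraries. For the genes whose differences moved most with this pair, values without each of its libraries are given beside the result.

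Levels can be compared between genes only per length of transcript. As CPM per kilobase of the transcript, DDIT4 was the highest of the 10 genes in every group, at 481 (477.6 to 484.2 over the 2 libraries) in MCF10A pCDH-empty and 1089 (1081 to 1098) in DCIS.COM pCDH-HOTAIR. BNIP3 came next in all 4 groups, at 70.8, 90.5, 63.2 and 88.6 CPM per kilobase in the order MCF10A pCDH-empty, MCF10A pCDH-HOTAIR, DCIS.COM pCDH-empty and DCIS.COM pCDH-HOTAIR. In MCF10A pCDH-HOTAIR the range of VEGFA (86.6 to 93.9) enclosed that of BNIP3 (90.1 to 90.8), so these neighbours did not differ beyond their spread. CA9 (20.9 to 22.3) and ADM (22.5 to 23.6) were neighbours in MCF10A pCDH-empty whose ranges did not meet. ANKRD37 was the lowest gene in every group, at 1.48 to 2.75 CPM per kilobase, and rested on as few as 27 reads in a library, whereas the other 9 genes had at least 203. The order below the highest pair differed between the lines, NDRG1 standing above BNIP3L in MCF10A pCDH-empty (53.7 against 50.8) and below it in DCIS.COM pCDH-empty (11.9 against 24.2).

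**Figure D1:**
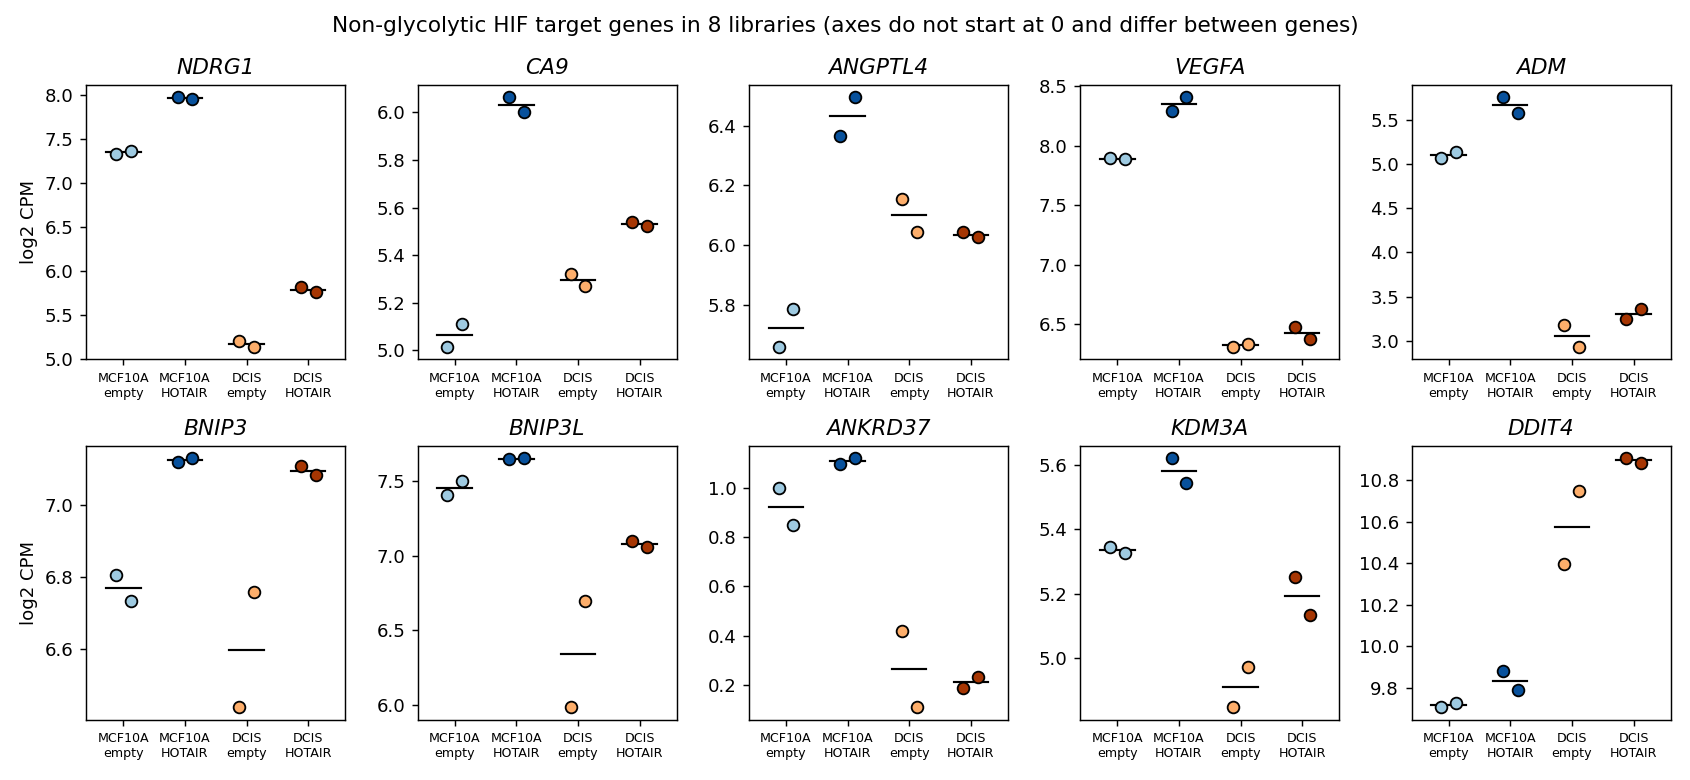
Level of each gene in log2 CPM (y axis, a separate range for each gene) in the 4 groups (x axis), where points are the 2 libraries of a group and bars their mean. NDRG1, VEGFA and ADM sit lower in all 4 DCIS.COM libraries than in all 4 MCF10A libraries, DDIT4 sits higher, and the DCIS.COM pCDH-empty points of BNIP3L lie furthest apart (5.98 and 6.69).

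Comparing DCIS.COM with MCF10A, NDRG1, ADM and VEGFA were far lower in DCIS.COM with either vector, between 2.96-fold and 5.12-fold, and DDIT4 was higher, by 1.81-fold with pCDH-empty and 2.09-fold with pCDH-HOTAIR. ANKRD37, the gene with the fewest reads, was lower in DCIS.COM with either vector. BNIP3L was lower by at least 1.5-fold with pCDH-empty only, and BNIP3 did not pass the test with either vector. CA9 and ANGPTL4 changed sides with the vector, being higher in DCIS.COM with pCDH-empty and lower with pCDH-HOTAIR. That change of sides restates the steps between the vectors, which were known when the genes were chosen, so it is a description only. Here a call means a fold of at least 1.5 together with an adjusted p under 0.05 (limma, Benjamini-Hochberg over all 13771 genes). With pCDH-empty 5 of the 10 genes were called lower, against 23.8% of all genes tested, and 1 was called higher, against 22.5%. With pCDH-HOTAIR 4 were called lower, against 21.7% of all genes, and 1 higher, against 22% of all genes. The median log2 fold change of the 10 genes was -0.54 with pCDH-empty and -0.54 with pCDH-HOTAIR, and that of all genes was -0.00012 and 0.0035. Epithelial markers moved between the lines as well, KRT5 by -2.61 and KRT14 by -4.66 and KRT8 by 2.35 and EPCAM by 2.33 on the log2 scale with pCDH-empty, and their part in these differences was not tested.

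NDRG1 (chromosome 8 from 134249418 to 134314265, minus strand, GRCh37) encodes a hypoxia- and differentiation-induced protein tied to growth control. In MCF10A it was measured at 7.33 and 7.36 log2 CPM with pCDH-empty and at 7.97 and 7.95 with pCDH-HOTAIR. In DCIS.COM the values were 5.21 and 5.14 with pCDH-empty and 5.82 and 5.76 with pCDH-HOTAIR. The 4 groups did not overlap, every pCDH-HOTAIR library lying above the pCDH-empty libraries of its line and every DCIS.COM library below all of MCF10A. Between the lines the log2 fold change was -2.17 (SE 0.061, adjusted p = 4.9e-08, limma) with pCDH-empty, a level 4.50-fold lower in DCIS.COM, and -2.17 (SE 0.061, adjusted p = 4.9e-08) with pCDH-HOTAIR. The difference between HOTAIR and empty vector was 0.62 in MCF10A and 0.61 in DCIS.COM (SE 0.061 each). The gene therefore stood at different levels in the lines with nearly equal steps between the vectors.

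CA9 (chromosome 9 from 35673925 to 35681156, plus strand, GRCh37) encodes a membrane carbonic anhydrase that helps export acid. Its levels in MCF10A were 5.02 and 5.11 log2 CPM with pCDH-empty and 6.063 and 6.002 with pCDH-HOTAIR. DCIS.COM had 5.32 and 5.27 with pCDH-empty and 5.54 and 5.52 with pCDH-HOTAIR. Both DCIS.COM groups thus lay between the MCF10A groups. With pCDH-empty DCIS.COM was 1.17-fold higher (log2 fold change 0.23, SE 0.069, adjusted p = 0.0171, limma), and with pCDH-HOTAIR it was 1.42-fold lower (-0.50, SE 0.069, adjusted p = 0.000304), so that neither difference reached 1.5-fold. Between the vectors CA9 was higher with HOTAIR by 0.97 on the log2 scale in MCF10A and by 0.24 in DCIS.COM. Exons of CA9 overlap ARHGEF39 on the opposite strand, and whether strand was used in counting is not given in the sources used here. ARHGEF39 lay at 3.03 and 2.81 log2 CPM in MCF10A pCDH-empty and at 2.92 and 3.02 in MCF10A pCDH-HOTAIR, with overlapping groups. It was higher in DCIS.COM, at 3.85 and 3.82 with pCDH-empty and at 3.82 and 3.79 with pCDH-HOTAIR. Its part in the difference of CA9 between the lines was not tested.

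Secreted factors are encoded by VEGFA, ADM and ANGPTL4. VEGFA (chromosome 6 from 43737921 to 43754224, plus strand, GRCh37) encodes the main growth factor of blood vessels. It was measured at 7.90 and 7.89 log2 CPM in MCF10A pCDH-empty, at 8.29 and 8.40 in MCF10A pCDH-HOTAIR, at 6.31 and 6.34 in DCIS.COM pCDH-empty and at 6.47 and 6.38 in DCIS.COM pCDH-HOTAIR. The lines were well apart. Compared with MCF10A, VEGFA was 2.96-fold lower in DCIS.COM with pCDH-empty (log2 fold change -1.57, SE 0.066, adjusted p = 3.1e-07, limma) and 3.78-fold lower with pCDH-HOTAIR (-1.92, SE 0.066, adjusted p = 1.2e-07). HOTAIR over empty vector was 0.45 in MCF10A and 0.10 in DCIS.COM, with no overlap between the vectors in either line.

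ADM (chromosome 11 from 10326620 to 10328944, plus strand, GRCh37) encodes adrenomedullin, a vasodilating peptide. Its 2 libraries read 5.07 and 5.13 log2 CPM in MCF10A pCDH-empty, 5.75 and 5.58 in MCF10A pCDH-HOTAIR, 3.17 and 2.93 in DCIS.COM pCDH-empty and 3.25 and 3.36 in DCIS.COM pCDH-HOTAIR. The drop from MCF10A to DCIS.COM was the largest of the 10 genes with pCDH-HOTAIR, at -2.36 (SE 0.11, adjusted p = 5.5e-07, limma), a level 5.12-fold lower. With pCDH-empty the level was 4.14-fold lower (-2.05, SE 0.11, adjusted p = 1.2e-06). Between the vectors ADM was higher with HOTAIR by 0.56 in MCF10A and by 0.25 in DCIS.COM, without overlap. The latter was 0.37 without DCIS.COM pCDH-empty 1 and 0.13 without DCIS.COM pCDH-empty 2.

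ANGPTL4 (chromosome 19 from 8428173 to 8439254, plus strand, GRCh37) encodes a secreted inhibitor of lipoprotein lipase. The levels were 5.66 and 5.79 log2 CPM in MCF10A pCDH-empty and 6.37 and 6.50 in MCF10A pCDH-HOTAIR, against 6.16 and 6.04 in DCIS.COM pCDH-empty and 6.04 and 6.03 in DCIS.COM pCDH-HOTAIR. As for CA9, DCIS.COM lay between the 2 vectors of MCF10A. DCIS.COM was 1.30-fold higher with pCDH-empty (0.38, SE 0.079, adjusted p = 0.00306, limma) and 1.32-fold lower with pCDH-HOTAIR (-0.40, SE 0.079, adjusted p = 0.00245), and neither reached 1.5-fold. With HOTAIR, ANGPTL4 was higher by 0.71 in MCF10A with no overlap. In DCIS.COM the difference was -0.065, and the groups all but touched, at 6.042 for the higher pCDH-HOTAIR library against 6.044 for the lower pCDH-empty library. It was -0.0087 without DCIS.COM pCDH-empty 1 and -0.12 without DCIS.COM pCDH-empty 2.

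BNIP3 and BNIP3L encode mitophagy receptors, related proteins of the outer mitochondrial membrane that bind LC3 and GABARAP proteins. BNIP3 (chromosome 10 from 133781188 to 133795471, minus strand, GRCh37) was at 6.81 and 6.73 log2 CPM in MCF10A pCDH-empty, 7.12 and 7.13 in MCF10A pCDH-HOTAIR, 6.44 and 6.76 in DCIS.COM pCDH-empty and 7.11 and 7.08 in DCIS.COM pCDH-HOTAIR. The DCIS.COM and MCF10A groups overlapped with pCDH-empty. The log2 difference of DCIS.COM from MCF10A was -0.17 (95% interval -0.40 to 0.058, adjusted p = 0.157, limma) with pCDH-empty and -0.030 (-0.26 to 0.20, adjusted p = 0.808) with pCDH-HOTAIR. The former was -0.012 without DCIS.COM pCDH-empty 1 and -0.33 without DCIS.COM pCDH-empty 2. BNIP3 was higher in both pCDH-HOTAIR libraries of each line, by 0.35 in MCF10A and 0.50 in DCIS.COM. The latter was 0.34 without DCIS.COM pCDH-empty 1 and 0.66 without DCIS.COM pCDH-empty 2.

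BNIP3L (chromosome 8 from 26240570 to 26363152, plus strand, GRCh37) was at 7.40 and 7.50 log2 CPM in MCF10A pCDH-empty and at 7.64 and 7.65 in MCF10A pCDH-HOTAIR. In DCIS.COM it was at 5.98 and 6.69 with pCDH-empty and at 7.10 and 7.06 with pCDH-HOTAIR. The pCDH-empty libraries of DCIS.COM were further apart (SD 0.50) than any other pair of these 10 genes. DCIS.COM was 2.16-fold lower with pCDH-empty (-1.11, SE 0.19, adjusted p = 0.000987, limma). The log2 fold change was -0.76 without DCIS.COM pCDH-empty 1 and -1.47 without DCIS.COM pCDH-empty 2. Each of these fits leaves 1 library in the group, whose own spread then drops out, so only the effect size is given. With pCDH-HOTAIR the level in DCIS.COM was 1.49-fold lower (-0.57, SE 0.19, adjusted p = 0.0276, limma), just under the threshold of 1.5. This SE includes the spread of the DCIS.COM pCDH-empty pair. The pCDH-HOTAIR libraries had an SD of 0.0060 in MCF10A and 0.030 in DCIS.COM. HOTAIR over empty vector was 0.20 in MCF10A and 0.74 in DCIS.COM, the largest of the 10 genes there, but 0.38 without DCIS.COM pCDH-empty 1 and 1.09 without DCIS.COM pCDH-empty 2. Exons of BNIP3L overlap PNMA2 on the opposite strand, which was not in the table.

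DDIT4 (chromosome 10 from 74033678 to 74035794, plus strand, GRCh37) encodes REDD1, which restrains mTORC1 through TSC1 and TSC2. It was at 9.71 and 9.73 log2 CPM in MCF10A pCDH-empty and at 9.88 and 9.79 in MCF10A pCDH-HOTAIR. DCIS.COM had 10.40 and 10.75 with pCDH-empty and 10.91 and 10.88 with pCDH-HOTAIR. It was the only member called higher in DCIS.COM, by 0.86 (SE 0.11, adjusted p = 0.000204, limma) with pCDH-empty and by 1.06 (SE 0.11, adjusted p = 5.9e-05) with pCDH-HOTAIR. The former was 1.03 without DCIS.COM pCDH-empty 1 and 0.68 without DCIS.COM pCDH-empty 2. HOTAIR over empty vector was 0.12 in MCF10A and 0.32 in DCIS.COM, and the latter was 0.15 without DCIS.COM pCDH-empty 1 and 0.50 without DCIS.COM pCDH-empty 2. The medium of MCF10A, but not the one given for DCIS.COM, held hydrocortisone, a glucocorticoid, and its part in the level of DDIT4 cannot be told apart from that of the cell line.

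KDM3A (chromosome 2 from 86667770 to 86719839, plus strand, GRCh37) encodes a demethylase of histone H3 lysine 9. The level was 5.35 and 5.33 log2 CPM in MCF10A pCDH-empty, 5.62 and 5.54 in MCF10A pCDH-HOTAIR, 4.85 and 4.97 in DCIS.COM pCDH-empty and 5.25 and 5.13 in DCIS.COM pCDH-HOTAIR. All DCIS.COM libraries lay below all MCF10A libraries. The difference was 1.35-fold with pCDH-empty (-0.43, SE 0.079, adjusted p = 0.00163, limma) and 1.31-fold with pCDH-HOTAIR (-0.39, SE 0.079, adjusted p = 0.00274), under the fold threshold. The vectors differed by 0.25 in MCF10A and 0.28 in DCIS.COM, higher in both libraries of each line.

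ANKRD37 (chromosome 4 from 186317175 to 186321782, plus strand, GRCh37) encodes a small ankyrin repeat protein. It was measured at 0.997 and 0.848 log2 CPM in MCF10A pCDH-empty, 1.10 and 1.12 in MCF10A pCDH-HOTAIR, 0.42 and 0.11 in DCIS.COM pCDH-empty and 0.19 and 0.23 in DCIS.COM pCDH-HOTAIR. DCIS.COM was lower, with a log2 fold change of -0.66 (SE 0.18, adjusted p = 0.0114, limma) with pCDH-empty and of -0.90 (SE 0.18, adjusted p = 0.00255) with pCDH-HOTAIR. The former call was lost without MCF10A pCDH-empty 1 (log2 fold change -0.58) and without DCIS.COM pCDH-empty 2 (-0.51). On the scale log2(CPM + 1), which shrinks low genes, the differences were -0.39 and -0.55, both under 1.5-fold. The vectors differed by 0.18 in MCF10A and by -0.053 in DCIS.COM, where the groups overlapped and the value was 0.10 without DCIS.COM pCDH-empty 1 and -0.21 without DCIS.COM pCDH-empty 2. UFSP2 on the opposite strand overlaps ANKRD37 and was at 4.29 to 4.59 log2 CPM over the 8 libraries, far above ANKRD37.

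**Figure D2:**
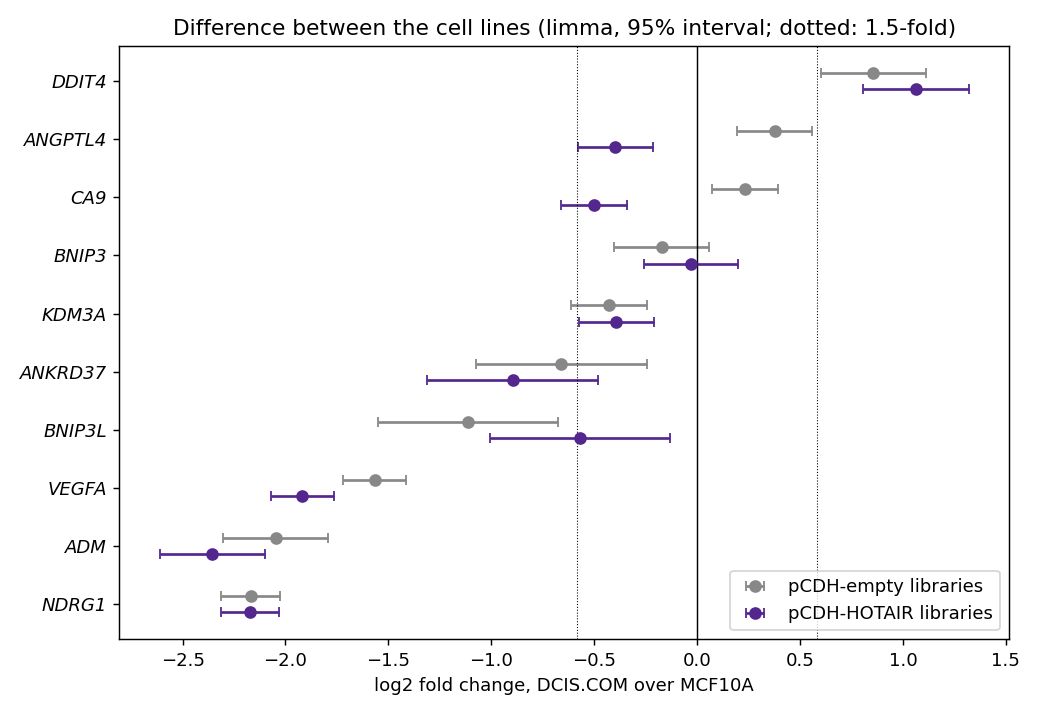
Log2 fold change of DCIS.COM over MCF10A (x axis) for each gene (y axis) with pCDH-empty (grey) and pCDH-HOTAIR (purple), where bars are 95% intervals from limma and dotted lines mark 1.5-fold. NDRG1, ADM and VEGFA lie between -2.36 and -1.57, DDIT4 lies at 0.86 and 1.06, and CA9 and ANGPTL4 lie on opposite sides of 0 for the 2 vectors.

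HOTAIR was then compared with empty vector within each line, as a description of genes that were listed with this comparison known. In MCF10A the pCDH-HOTAIR libraries lay above both pCDH-empty libraries for all 10 genes, while 22.5% of all genes did so. The log2 differences ran from 0.12 for DDIT4 to 0.97 for CA9, with a median of 0.40 against -0.0055 over all genes. The thresholds were passed by 2 of the 10, NDRG1 and CA9, and by 0.0218% of all genes in that direction. In DCIS.COM 8 of the 10 genes were higher in both pCDH-HOTAIR libraries, while 24.7% of all genes were. The median was 0.27 against 0.010 over all genes, and the thresholds were passed by NDRG1 alone and by 0.0871% of all genes. These counts moved with single libraries. In MCF10A none of the 10 passed without any single MCF10A library or either DCIS.COM pCDH-HOTAIR library, while the log2 differences stayed at 0.92 to 1.02 for CA9 and at 0.60 to 0.64 for NDRG1. In DCIS.COM the fold of NDRG1 was 1.53, close to the threshold. Its call was lost without any single MCF10A library, either DCIS.COM pCDH-HOTAIR library or DCIS.COM pCDH-empty 2. Without DCIS.COM pCDH-empty 2 its log2 difference was 0.581, under 1.5-fold, and those of BNIP3 and BNIP3L were 0.66 and 1.09. Nothing is read from these counts, since the comparison was known when the genes were chosen.

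The step between the vectors was then set side by side in the 2 lines. For CA9 it was smaller in DCIS.COM by 0.73 (0.24 against 0.97), for ANGPTL4 by 0.77 (-0.065 against 0.71) and for VEGFA by 0.35 (0.10 against 0.45), all on the log2 scale. BNIP3L went the other way by 0.54 (SE 0.27), or 0.19 without DCIS.COM pCDH-empty 1 and 0.90 without DCIS.COM pCDH-empty 2, and NDRG1 differed by -0.0030 (SE 0.086). This difference is built from the values known when the genes were chosen, so it is no test of them. As a count, 0 of the 10 and 0.0436% of all genes passed an adjusted p under 0.05 (limma interaction), 3 of the 10 and 10.5% of all genes had an unadjusted p under 0.05, and limma-voom on the recovered reads also gave 0 of the 10. Without DCIS.COM pCDH-empty 1 the difference was -0.71 for CA9 and -0.72 for ANGPTL4. Without DCIS.COM pCDH-empty 2 it was -0.76 for CA9 and -0.83 for ANGPTL4. Counts moved in these fits, but each leaves 1 library in the group, so only effect sizes are given.

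**Figure D3:**
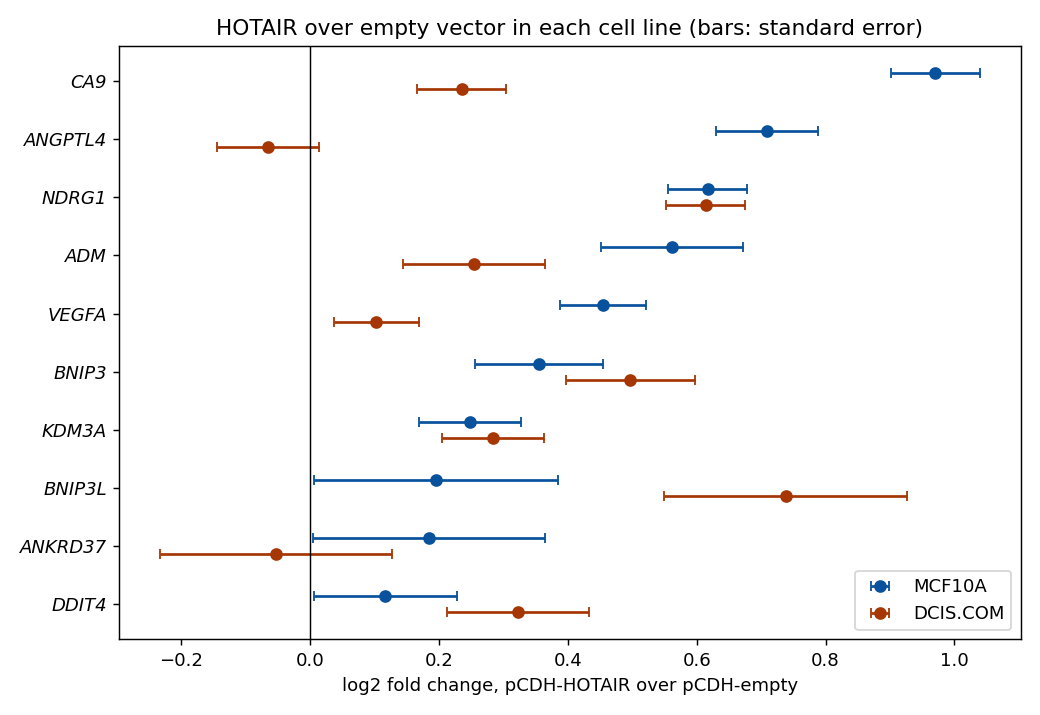
Log2 fold change of pCDH-HOTAIR over pCDH-empty (x axis) for each gene (y axis) in MCF10A (blue) and DCIS.COM (brown), where bars are standard errors from limma. NDRG1 is at 0.62 and 0.61 in the 2 lines, CA9 at 0.97 and 0.24, ANGPTL4 at 0.71 and -0.065, and BNIP3L at 0.20 and 0.74.

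The 10 genes did not follow each other equally over the 8 libraries. After each gene was centred within its cell line, Pearson's r with the mean of the other 9 genes was 0.96 for NDRG1, 0.92 for KDM3A and 0.90 for CA9. It was 0.68 for ANGPTL4, 0.66 for DDIT4, 0.57 for BNIP3L and 0.26 for ANKRD37, the gene with the fewest reads. The mean profile was -0.23 and -0.21 in MCF10A pCDH-empty, 0.23 and 0.21 in MCF10A pCDH-HOTAIR, -0.18 and -0.11 in DCIS.COM pCDH-empty and 0.16 and 0.13 in DCIS.COM pCDH-HOTAIR. Genes with a mean log2 CPM of at least 3 numbered 9532, members included. Outside the 10 genes, the profiles most like the mean profile were those of HOTAIR (r 0.996), CCDC71L (0.992), IGFBP3 (0.991), TNFRSF10D (0.988) and MELTF (0.983). Each r was taken over 8 libraries that share the same vector contrast. IGFBP3, an insulin-like growth factor binding protein, was at 8.65 and 8.60 log2 CPM in MCF10A pCDH-empty and at 9.03 and 8.99 in MCF10A pCDH-HOTAIR. These values describe likeness over 4 groups only. Centred within a line, the profiles hold mainly the step between the vectors, which was known when the genes were chosen. Likeness to HOTAIR is therefore no test of them.

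Other HIF targets outside glycolysis were examined as a list of 42 genes, of which 39 were in the table. Between the lines with pCDH-empty, 15 of the 39 were called lower and 5 higher in DCIS.COM, with a median of -0.45, and with pCDH-HOTAIR 18 were lower and 7 higher, with a median of -0.48. For these and the following lists the shares of all genes called were 23.8% lower and 22.5% higher with pCDH-empty, and 21.7% lower and 22% higher with pCDH-HOTAIR. EGLN3, an oxygen sensor that HIF itself induces, was lower with pCDH-empty (log2 fold change -2.73, adjusted p = 7.8e-07, limma). PPP1R3C, a glycogen-targeting phosphatase subunit, had 404 and 318 reads in MCF10A pCDH-empty and 1 read in each DCIS.COM pCDH-empty library. Called higher were RORA, a nuclear receptor, by 3.38 (adjusted p = 3.3e-05, limma) and AK4, a mitochondrial adenylate kinase, by 1.33 (adjusted p = 6.2e-07, limma). RORA had only 12 and 6 reads in MCF10A pCDH-empty, against 92 and 124 in DCIS.COM pCDH-empty. NDUFA4L2, a mitochondrial protein, had 7 and 2 reads in MCF10A pCDH-empty and 478 and 395 in DCIS.COM pCDH-empty. Both directions were thus present in the wider list, as among the 10 genes.

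Between the vectors, 35 of the 39 were higher with HOTAIR in MCF10A (32 without overlap, median 0.25) and 35 of the 39 in DCIS.COM (29 without overlap, median 0.23), and limma called 0 in either line, with 16 and 20 at an unadjusted p under 0.05. Of all genes, 22.5% in MCF10A and 24.7% in DCIS.COM were higher without overlap, and 7.28% and 17.5% had an unadjusted p under 0.05 in either direction. These shares are also the background of the lists below. Glycolytic HIF targets, of which 19 of 20 were in the table, were all higher without overlap in MCF10A (median 0.17), whereas in DCIS.COM 10 were higher and 9 lower (median 0.0054), with 0 called in either line and 8 and 4 at an unadjusted p under 0.05. Between the lines with pCDH-empty 6 of the 19 were called higher in DCIS.COM, including the hexokinase HK2 (log2 fold change 1.87, adjusted p = 3.8e-07, limma), and 5 lower, including the lactate dehydrogenase LDHA (-1.12, adjusted p = 5.4e-06). With pCDH-HOTAIR the counts were 4 higher and 7 lower. These lists were chosen with earlier results known, and the medians are set beside -0.0055 and 0.010 over all genes.

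The genes that make and control HIF were listed as well. Of 12 HIF subunits and regulators 11 were in the table, HIF3A being the exception, and 2 were called lower in DCIS.COM with pCDH-empty: EGLN3, given above, and EPAS1 (-0.97, adjusted p = 1.5e-05, limma), which encodes HIF-2 alpha. With pCDH-HOTAIR the same 2 were called, EPAS1 at -1.44. HIF1A itself differed by 0.037 between the lines with pCDH-empty, and by 0.15 between the vectors in MCF10A. Limma called 0 of the 11 for HOTAIR over empty vector in either line, with 2 and 5 at an unadjusted p under 0.05. These are RNA levels, while HIF1A is controlled mainly as protein.

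Relatives of the 10 genes went in both directions between the lines. Of 17 listed, 10 were in the table, and with pCDH-empty 3 were called higher and 5 lower in DCIS.COM, with pCDH-HOTAIR 2 and 5. NDRG2, of the NDRG1 family, was higher in DCIS.COM by 5.91 (adjusted p = 4.5e-08, limma), with 7 and 5 reads in MCF10A pCDH-empty against 480 and 463 in DCIS.COM pCDH-empty, the opposite direction to NDRG1. KDM3B was higher by 0.82 (adjusted p = 1.7e-05) while KDM3A was lower. DDIT4L, the relative of DDIT4, had 28 and 13 reads in MCF10A pCDH-empty and 0 in all 4 DCIS.COM libraries. VEGFC was lower in DCIS.COM (log2 fold change -1.92, adjusted p = 2.0e-06, limma), as VEGFA was. Between the vectors limma called 0 of the 10 in either line, with 2 at an unadjusted p under 0.05 in each.

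Of 16 receptors and binding partners 10 were in the table. The VEGFA receptors FLT1 and KDR and the ADM receptor genes CALCRL and RAMP1 to RAMP3 were not among them, but the VEGFA co-receptors NRP1 and NRP2 were. With pCDH-empty 7 of the 10 were called lower in DCIS.COM and 1 higher, and the counts were the same with pCDH-HOTAIR. NRP2 was lower (log2 fold change -6.02, adjusted p = 2.9e-08, limma), as were MAP1LC3B (-1.59, adjusted p = 1.6e-06) and GABARAPL1 (-1.56, adjusted p = 1.9e-05), which the mitophagy receptors bind. BCL2, a survival protein that BNIP3 can bind, was the gene called higher, by 3.10 (adjusted p = 0.000116, limma). It had only 12 and 8 reads in MCF10A pCDH-empty, against 87 and 111 in DCIS.COM pCDH-empty. Between the vectors limma called 0 of these 10 in either line, with 1 at an unadjusted p under 0.05 in MCF10A and 5 in DCIS.COM.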

How the data were processed

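RNA-seq data of 8 libraries were analysed. According to the study's methods, total RNA was made into ScriptSeq v2 libraries, read as 76 nt paired ends, mapped to hg19 with Rsubread and counted on UCSC known genes with featureCounts. For 13771 genes the authors deposited log2 CPM made with edgeR, of which 343 had no symbol. Every gene exceeded 0.5 CPM in at least 2 libraries, so no member was lost to a filter here. How reads on overlapping genes were assigned is not given in the sources used here. Besides the overlaps given above, exons of NDRG1 overlap a long non-coding RNA on the same strand. Those of VEGFA overlap a long non-coding RNA on the opposite strand.

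Whole reads were recovered from the steps of the deposited values above a shared prior of 0.0717 CPM (100% whole, tolerance 0.01), and with 19306864 to 34884841 reads per library counting error bears mainly on ANKRD37. All fold changes and tests were computed here on the deposited log2 CPM, with limma 3.58.1 in R 4.3.3 (4 group means, eBayes with trend, Benjamini-Hochberg over all genes). A gene was called at an adjusted p under 0.05 and a fold of at least 1.5, with no fold threshold for the interaction. An exact permutation test of 2 against 2 libraries cannot go below p = 0.333. The fit was tried on simulated reads with the same extra spread in all genes and groups, for 2-fold and 4-fold changes only. Those settings hold no pair as unlike as DCIS.COM pCDH-empty and no smaller change, so they do not test these. Replicate numbers did not pair the samples, the correlations of their deviations lying between -0.029 and 0.034.

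The members and gene lists were chosen with earlier results of these data known. The text names the members, HOTAIR, up to 3 called changes in each direction for each list in each line contrast, listed genes of a member's role, and the 5 genes most like the members' mean profile. A further gene under this rule is not reported here. Epithelial markers were given as a check of the labels. Gene positions and transcript lengths came from GENCODE release 44 on GRCh37, and promoters from RefSeq on GRCh38.p14. The alternatives were log2(CPM + 1), a mean CPM of at least 2, median centring, quantile normalization, no trend, the replicate block, separate fits, a log2 fold change of at least 1.5, limma-voom on recovered reads, and each library left out in turn. Python 3.11.15, pandas 2.3.3 and numpy 2.4.6 were used for the rest.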

Additional observations from a re-analysis of the deposited data

How the results depend on the processing

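Of 825 refitted log2 fold changes of the 10 genes, 761 kept their direction and side of the threshold, 39 lost a call, 15 gained a call and 10 reversed. With a library left out, its partner was taken to vary like the other groups. At a log2 fold change of at least 1.5, 3 genes were past the threshold between the lines with either vector (from 6 with pCDH-empty and 5 with pCDH-HOTAIR), and 0 for HOTAIR in either line. For HOTAIR in MCF10A, 2 genes were called, and 1 with median centring, with quantile normalization, without the trend and with the replicate block, 0 in a separate fit, and 0 to 3 with a library left out. In DCIS.COM, 1 gene was called, 0 without the trend and in a separate fit, and 0 to 2 with a library left out. For the difference between the lines the range with a library left out was 0 to 7 (main 0). The replicate block changed the number of called genes by over 1.5 times in no other comparison of the 10 genes. Log2(CPM + 1) took the line difference of ANKRD37 to -0.39 with pCDH-empty and to -0.55 with pCDH-HOTAIR, both below the fold threshold.

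Reversals were small. HOTAIR over empty vector for ANKRD37 in DCIS.COM was 0.10 without DCIS.COM pCDH-empty 1, the range with a library left out being -0.21 to 0.10. The difference between the lines in the HOTAIR effect was -0.018 for BNIP3 and -0.027 for KDM3A without DCIS.COM pCDH-empty 1, and for KDM3A -0.0035 without MCF10A pCDH-HOTAIR 2 and -0.024 without DCIS.COM pCDH-HOTAIR 1. The highest values with a library left out were 0.30 for BNIP3 and 0.098 for KDM3A. For NDRG1 it was 0.0037 with quantile normalization, 0.015 without MCF10A pCDH-empty 1, 0.0049 without MCF10A pCDH-HOTAIR 1, 0.030 without DCIS.COM pCDH-empty 1 and 0.029 without DCIS.COM pCDH-HOTAIR 2, the lowest value being -0.036. Calls over all genes fell between the lines from 6370 to 2418 with pCDH-empty and from 6018 to 2357 with pCDH-HOTAIR at a log2 fold change of at least 1.5. With a library left out, counts over all genes moved for HOTAIR in MCF10A (3 in the main fit), in DCIS.COM (12) and for the interaction (6). They are not given, since 1 library then stands for its group. All groups share 1 estimate of the spread per gene. Leaving out a DCIS.COM pCDH-empty library therefore takes that pair's spread out of every comparison. For the interaction of BNIP3L the SE was 0.27 in the main fit, 0.065 without DCIS.COM pCDH-empty 1 and 0.066 without DCIS.COM pCDH-empty 2. The replicate block gave 20 for DCIS.COM and 0 for the interaction, and the cause of that was not tested.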
